A study of Mus musculus with 6 samples.

Results

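The genes described here are 10 regulators of the G1 phase of the cell cycle, of 54838 genes in the count table. They are *Ccng2*, the D-type cyclins *Ccnd1*, *Ccnd2* and *Ccnd3*, the E-type cyclin *Ccne1*, the kinases *Cdk4* and *Cdk6*, and the CDK inhibitors *Cdkn1b*, *Cdkn2c* and *Cdkn2d*. The family was chosen by the log2 fold change of *Ccng2*, which is among the strongest increases in this same comparison, so the values of *Ccng2* are a description and carry no test. The other 9 genes were listed for their family, with earlier results of these data known. RNA was sequenced from sorted I1DN leukemia cells, a mouse model of acute myeloid leukemia (AML), taken from bone marrow and spleen. All 6 samples carry the same genotype, IDH1R132H, DNMT3AR882H and NrasG12D on a C57BL/6 background, which was introduced into fetal liver stem and progenitor cells with expression constructs. The leukemia was transplanted from cryopreserved cells of a moribund mouse into sublethally irradiated *Ptprca* recipients, so the mice of both groups carry related leukemic cells and not independent tumors. Mice received vehicle (n = 3) or AG636 (n = 3), an inhibitor of the pyrimidine synthesis enzyme DHODH, at 100 mg/kg b.i.d. by oral gavage. The duration is given as 1 day in one legend and 4 days in another, and the sorted population as cKit+CD11b- in one place and cKit-high CD11b-low in another. The age of the mice is not given in the sources used here.

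A cell in G1 commits to a new round of DNA synthesis through the RB pathway. D-type cyclins bind and activate CDK4 or CDK6, cyclin E activates CDK2, and these kinases phosphorylate the RB family, which then releases E2F factors to transcribe genes of S phase. INK4 proteins, among them p18 (*Cdkn2c*) and p19 (*Cdkn2d*), bind CDK4 and CDK6 and block cyclin D, whereas the KIP protein p27 (*Cdkn1b*) acts mainly on complexes with CDK2. Cyclin G2 (*Ccng2*) is an unconventional cyclin that accumulates when cells leave the cycle, and its gene is a known target of FOXO factors. In blood cells, *Cdk6* and *Ccnd3* are prominent among the kinases and cyclins of G1, and myeloid differentiation is accompanied by exit from the cycle.

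Counts per sample were 5902108, 7906589 and 4866168 with vehicle and 4634963, 4723223 and 5097390 with AG636, so that 3 counts correspond to 0.392 to 0.637 CPM (counts scaled to library sizes adjusted by TMM). All 10 genes passed the filter on low counts, as did 11092 genes in all. Of these, 2368 (21.3%) were called at an adjusted p under 0.05 by edgeR's quasi-likelihood test, 1146 (10.3%) higher and 1222 (11.0%) lower with AG636, and 48.4% of the calls were therefore higher. With library size alone in place of TMM scaling the split was 1483 higher and 913 lower, 61.9% higher. The median log2 fold change over all genes tested was 0.03, and 0.12 with library size alone. The vehicle sample 1 lay farthest from the other samples of its group on principal component 1 of log2 CPM, at -49.7 against -24.0 and -15.9.

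In I1DN cells from AG636-treated mice, *Ccng2* was far above its level with vehicle, the INK4 inhibitors *Cdkn2c* and *Cdkn2d* were higher, and *Ccnd2* and *Cdk4* were lower. Of the 9 genes other than *Ccng2*, 4 passed the threshold (edgeR, p adjusted over all genes), 2 higher and 2 lower, where 21.3% of all genes tested were called. Without the vehicle sample 2, or without the AG636 sample 3, 2 of the 9 were called, *Ccnd2* and *Cdkn2d*. The remaining 5 of the 9, *Ccnd1*, *Ccnd3*, *Ccne1*, *Cdk6* and *Cdkn1b*, did not pass. The CPM of the groups did not overlap for 5 of the 9, 3 higher and 2 lower, beside 41.1% of all genes tested. The median log2 fold change of the 9 genes was -0.20, and of all 10 it was -0.13. The plot of CPM by mouse shows each of these values. In sorted cells of this kind, fewer cells of a type and less RNA per cell cannot be told apart. Markers of mature neutrophils were also higher with AG636, with summed levels of 1078 to 2456 CPM with vehicle and 2998 to 6070 CPM with AG636. Most of these sums came from *S100a8* and *S100a9*, with means of 986 and 655 CPM with vehicle and 1979 and 1448 CPM with AG636. *S100a9* was called, whereas *S100a8* was not (adjusted p = 0.0872, edgeR) and its groups overlapped. The part of the neutrophil markers in the results for the G1 genes was not tested.

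**Figure D1:**
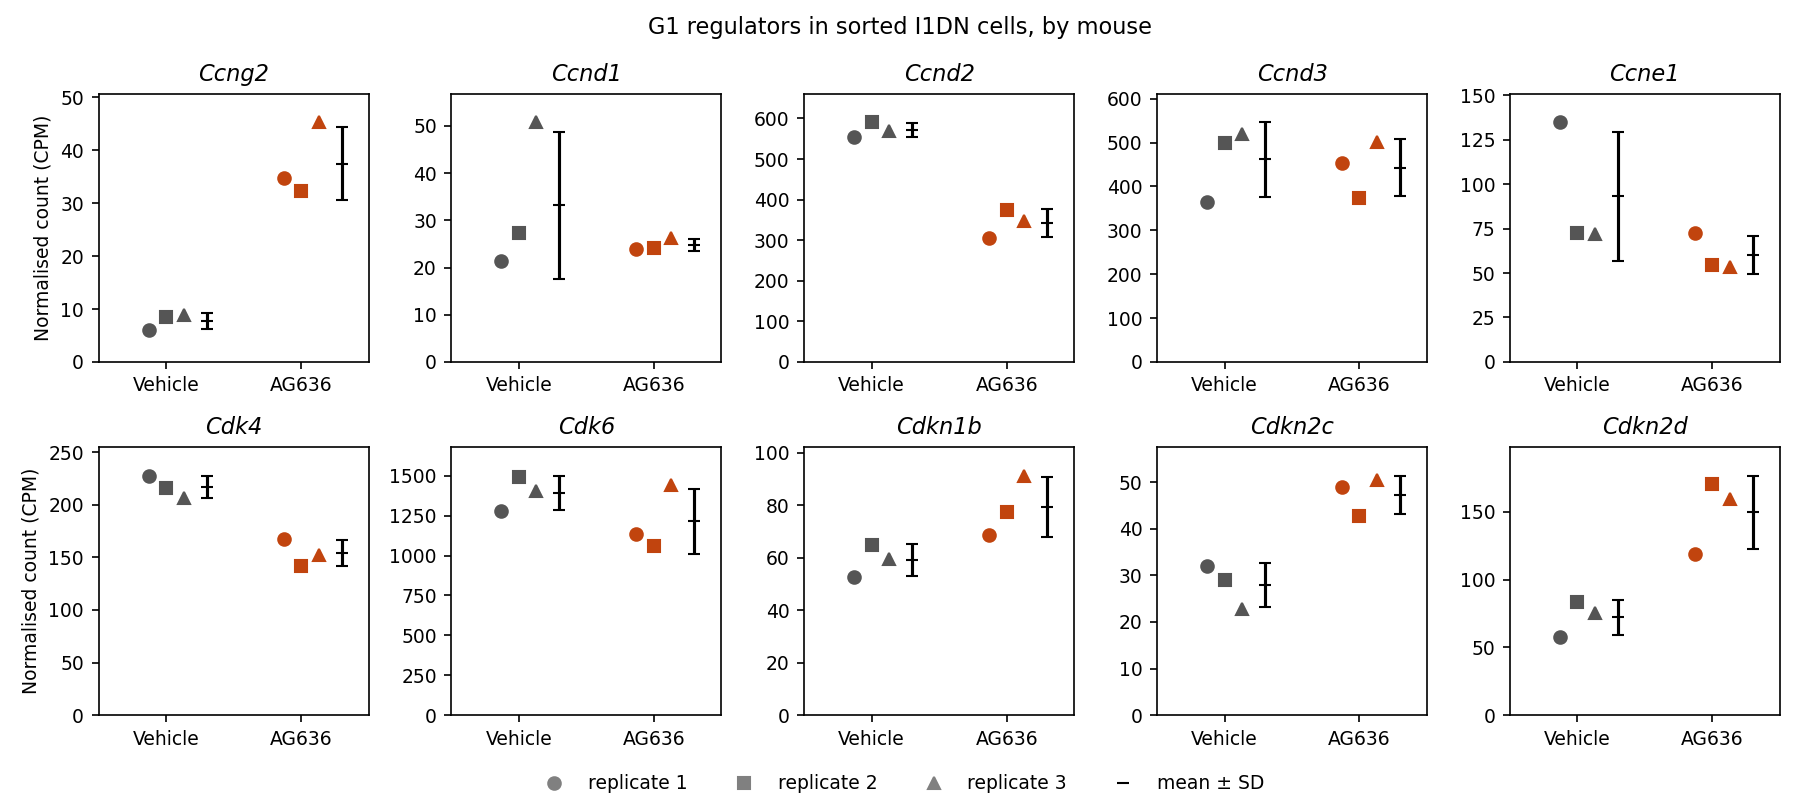
Normalised counts (CPM on TMM-scaled library sizes, linear axes from 0) of the 10 G1 regulators in each of 3 vehicle (grey) and 3 AG636 (orange) mice, with the mean and SD beside each group. *Ccng2*, *Cdkn2c*, *Cdkn2d* and *Cdkn1b* lie higher in every AG636 sample, *Ccnd2* and *Cdk4* lie lower, and single vehicle samples stand apart for *Ccnd1* (50.8 CPM) and *Ccne1* (134.8 CPM).

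*Ccng2* (chromosome 5 from 93267257 to 93276231 of mm10, plus strand) had 34, 65 and 42 counts with vehicle and 164, 157 and 240 with AG636. On the normalised scale these were 6.06, 8.50 and 8.78 CPM with vehicle and 34.8, 32.4 and 45.3 CPM with AG636. Each AG636 sample was thus above each vehicle sample, and the group means were 7.78 ± 1.49 (SD, n = 3) and 37.5 ± 6.87 (SD, n = 3), a ratio of 4.82. The log2 fold change was 2.27 (standard error, SE, 0.22), and it ranged from 2.10 to 2.36 over 13 alternative settings. By log2 fold change *Ccng2* was number 27 in the order of the 1146 genes called higher, a rank that describes the choice and tests nothing. Its nearest neighbours in that order were *Dnajb13* at 2.28 and *Cdkn1c* at 2.25, both of which had mean levels of at most 0.912 CPM with vehicle. Its exons overlap no exon of another gene in the table.

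The genes whose log2 CPM over the 6 samples were most like those of *Ccng2*, among 6871 genes with a mean of at least 20 CPM, were *Rnf144a* (Pearson's r = 0.997), *Ifi203* (0.996) and *Trim12a* (0.996). They had log2 fold changes of 1.04, 1.14 and 0.90. The 6 points share the separation of the treated from the control mice, so the coefficients describe mostly that step.

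Promoter windows are shown for *Ccng2*, *Cdk4* and *Cdkn2d*, so that the start regions of the cyclin that was higher, the kinase that was lower and the inhibitor with the largest difference can be read side by side. They are 300 bases of RefSeq sequence on GRCm38.p6, from 250 bases before to 50 after the annotated start, written 5′ to 3′ on the gene's strand. The windows lie at chr5:93267323-93267622 (plus) for *Ccng2*, chr10:127063285-127063584 (plus) for *Cdk4* and chr9:21291160-21291459 (minus) for *Cdkn2d*. The RefSeq start can differ from the start of the gene as counted. The whole *Ccng2* window lies downstream of that gene's start in the count table, at 93267257. Most of the *Cdkn2d* window lies inside the gene, which starts at 21291407 on the minus strand. Capitals mark matches to the E-box CACGTG.
Ccng2: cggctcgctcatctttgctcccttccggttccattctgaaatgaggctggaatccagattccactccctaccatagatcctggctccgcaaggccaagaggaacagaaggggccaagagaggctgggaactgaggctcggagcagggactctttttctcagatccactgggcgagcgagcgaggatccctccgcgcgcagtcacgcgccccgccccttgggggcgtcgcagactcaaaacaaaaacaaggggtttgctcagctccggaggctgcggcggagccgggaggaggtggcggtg
Cdk4: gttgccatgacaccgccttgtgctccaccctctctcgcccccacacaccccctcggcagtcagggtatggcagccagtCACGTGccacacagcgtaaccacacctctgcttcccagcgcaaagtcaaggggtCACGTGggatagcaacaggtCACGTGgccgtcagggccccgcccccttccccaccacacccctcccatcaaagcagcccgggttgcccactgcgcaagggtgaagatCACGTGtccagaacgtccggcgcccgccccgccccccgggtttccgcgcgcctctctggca
Cdkn2d: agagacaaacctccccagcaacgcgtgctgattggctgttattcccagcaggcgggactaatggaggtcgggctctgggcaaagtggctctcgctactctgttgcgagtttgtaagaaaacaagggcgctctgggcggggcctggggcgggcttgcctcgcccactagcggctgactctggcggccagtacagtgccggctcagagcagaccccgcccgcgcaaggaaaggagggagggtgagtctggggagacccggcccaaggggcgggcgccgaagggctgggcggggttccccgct

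RefSeq windows were found for 8 of the 10 genes, 10 windows in all, and were searched on both strands for an E2F site (TTTCCCGC or TTTGGCGC), a FOXO site (GTAAACA), the E-box (CACGTG, which reads the same on both strands) and the CRE (TGACGTCA). The *Cdk4* window held 4 E-boxes, at positions 79, 133, 153 and 240 counted from 1 at its 5′ end, and 8 of 32851 windows in the reference table (0.0244%) held that many or more. The number compared was taken from the *Cdk4* window itself, so this share is a description and tests nothing. At least 1 E-box was found in 7.15% of all windows, and also in the window of *Cdk6* and in 1 of the windows of *Cdkn2c*. A FOXO match lay in 1 of the windows of *Ccnd3*, where 3.65% of all windows hold one. None of the 10 windows matched E2F or CRE, which occur in 1.56% and 1.79% of all windows. The *Ccng2* and *Cdkn2d* windows, which lie wholly or mostly inside the genes as counted, matched none of the motifs. These matches describe letters only, and a window of this size leaves most regulatory sequence unread.

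Among the D-type cyclins, which carry the signal from growth factors to CDK4 and CDK6, *Ccnd2* alone passed the threshold. *Ccnd2* (chromosome 6 from 127125162 to 127152193, minus strand) had 555, 591 and 569 CPM with vehicle and 306, 374 and 347 CPM with AG636. The groups were well apart, with means of 571 ± 18.0 (SD, n = 3) and 342 ± 34.5 (SD, n = 3), so the mean with AG636 was 59.9% of that with vehicle. The log2 fold change was -0.74 (SE 0.11, edgeR adjusted p = 0.00411), and the call held in all 13 alternative settings. *Ccnd3* (chromosome 17 from 47505051 to 47599691, plus strand) had 364, 500 and 521 CPM with vehicle and 453, 373 and 502 CPM with AG636. These values overlapped, and the log2 fold change of -0.06 (95% interval -0.42 to 0.30, adjusted p = 0.809, edgeR) had no stable sign, being 0.03 with library size alone. *Ccnd1* (chromosome 7 from 144929931 to 144939925, minus strand) had 21.4, 27.3 and 50.8 CPM with vehicle and 24.0, 24.1 and 26.2 CPM with AG636. The vehicle sample 3 was far above the other vehicle samples, and the log2 fold change of -0.41 (95% interval -1.04 to 0.22, adjusted p = 0.324, edgeR) did not pass. Without that sample it was -0.0019.

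The makeup of the D-type cyclin counts was compared within each sample, which needs no scaling between libraries. Counts came from transcript ends and do not grow with transcript length. *Ccnd2* made up 59.0%, 52.8% and 49.9% of the *Ccnd1*, *Ccnd2* and *Ccnd3* counts with vehicle and 39.1%, 48.5% and 39.7% with AG636. All AG636 shares were lower, a difference of -11.5 points (53.9 ± 4.65% against 42.4 ± 5.31%, SD, n = 3 each; two-sided exact permutation p = 0.1, the smallest that 3 against 3 samples allow). The share of *Ccnd3* went the other way, from 43.0 ± 3.76% to 54.5 ± 5.36% (SD, n = 3 each; exact permutation p = 0.1). *Ccnd1* made up 3.06 ± 1.21% with vehicle and 3.06 ± 0.065% with AG636 (SD, n = 3 each). Its vehicle shares were 2.3%, 2.4% and 4.5%, the last in the vehicle sample 3. The summed level of these cyclins, a sum formed after the values were seen, was 1066 ± 109 CPM (SD, n = 3) with vehicle and 809.7 ± 56.9 CPM (SD, n = 3) with AG636, and its groups did not overlap. *Ccnd2* accounted for most of the difference between these sums.

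**Figure D2:**
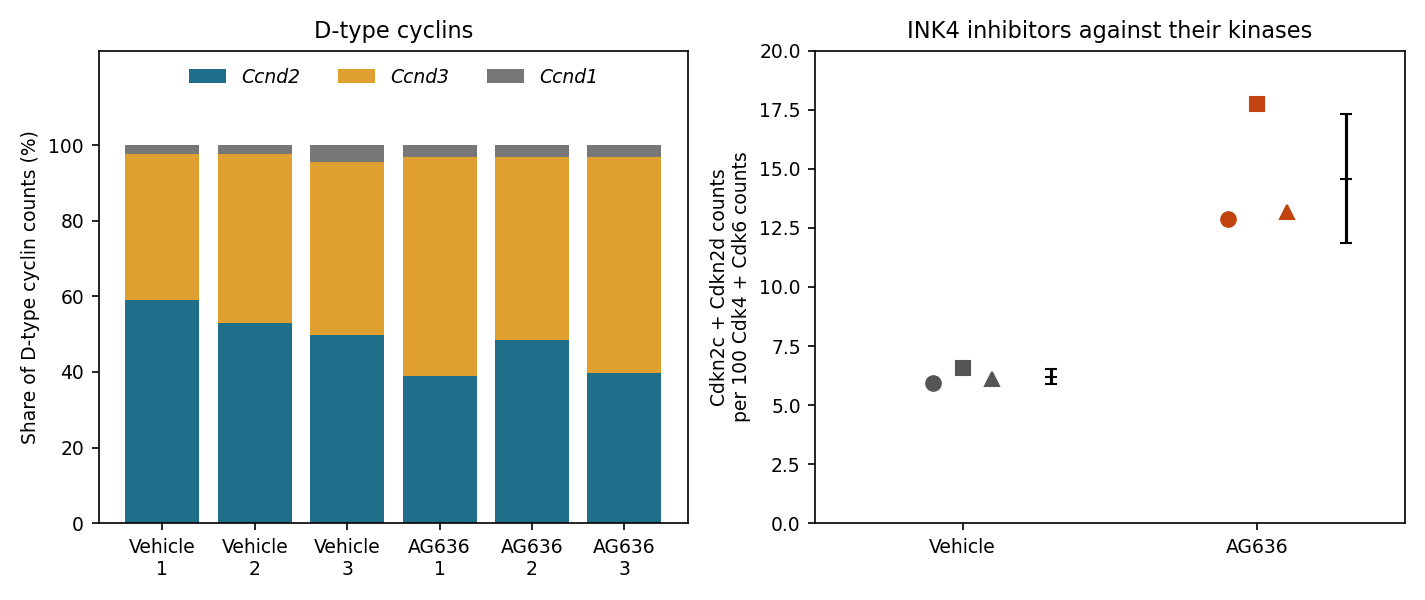
Left, the share of *Ccnd2*, *Ccnd3* and *Ccnd1* in the summed D-type cyclin counts of each sample (percent, bars from 0). Right, *Cdkn2c* plus *Cdkn2d* counts per 100 *Cdk4* plus *Cdk6* counts in each mouse, with mean and SD; *Ccnd2* shares run from 49.9% to 59.0% with vehicle and from 39.1% to 48.5% with AG636, and the inhibitor ratio from 5.95 to 6.56 and from 12.9 to 17.7.

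*Ccne1* (chromosome 7 from 38097984 to 38107534, minus strand), the E-type cyclin that activates CDK2 late in G1, had 134.8, 72.3 and 72.1 CPM with vehicle and 72.4, 54.4 and 53.4 CPM with AG636. The vehicle sample 1 was high, and the highest AG636 value lay between the other vehicle values and this one, so the groups overlapped. The log2 fold change was -0.63 (95% interval -1.18 to -0.08), with an adjusted p of 0.0907 in edgeR's test. Without the vehicle sample 1 it was -0.28, and that sample also had the highest summed level of erythroid markers (2908 CPM, beside 1152 to 2149 CPM in the other samples), whose part in the *Ccne1* value was not tested. With DESeq2 or without the filter on low counts *Ccne1* passed, at adjusted p values of 0.0485 and 8.9e-04.

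Of the partner kinases, *Cdk4* was lower and *Cdk6* did not pass. *Cdk4* (chromosome 10 from 127063534 to 127067920, plus strand) had 228, 216 and 207 CPM with vehicle and 167, 142 and 153 CPM with AG636. The groups did not overlap, at 217 ± 10.5 and 154 ± 12.7 CPM (SD, n = 3 each), and the log2 fold change was -0.49 (SE 0.11, edgeR adjusted p = 0.0166). The call was lost without the vehicle sample 2 (adjusted p = 0.0502, edgeR) and without the AG636 sample 3 (0.0607), while the log2 fold change stayed at -0.51 and -0.49. *Cdk6* (chromosome 5 from 3341485 to 3531008, plus strand), known as the more widely used of the pair in hematopoietic progenitors, had 1279, 1494 and 1406 CPM with vehicle and 1137, 1061 and 1443 CPM with AG636. The AG636 sample 3 lay within the vehicle range, and the log2 fold change was -0.20 (95% interval -0.49 to 0.09, adjusted p = 0.298, edgeR). *Cdk6* made up 86.5 ± 1.38% of the counts of both kinases with vehicle and 88.6 ± 1.68% with AG636 (SD, n = 3 each; exact permutation p = 0.3), a difference within the spread of the samples.

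The INK4 inhibitors, which bind the same kinases, were both higher. *Cdkn2d* (chromosome 9 from 21288410 to 21291407, minus strand), the gene of p19, had 57.8, 83.2 and 75.6 CPM with vehicle and 119, 171 and 160 CPM with AG636. Every AG636 value was above every vehicle value, with means of 72.2 ± 13.1 and 149.7 ± 27.0 CPM (SD, n = 3 each). The log2 fold change was 1.05 (SE 0.18, edgeR adjusted p = 0.00555), the largest in size among the 9 genes other than *Ccng2*, and the call held in all 13 alternative settings. *Cdkn2c* (chromosome 4 from 109660876 to 109667189, minus strand), the gene of p18, had 31.9, 29.0 and 22.8 CPM with vehicle and 48.9, 42.7 and 50.4 CPM with AG636. The groups did not overlap, at 27.9 ± 4.67 and 47.3 ± 4.08 CPM (SD, n = 3 each), and the log2 fold change was 0.76 (SE 0.17, edgeR adjusted p = 0.0146). Its call was lost without the vehicle sample 2 (adjusted p = 0.0506, edgeR), the AG636 sample 1 (0.0510) or the AG636 sample 3 (0.0596), with log2 fold changes of 0.78, 0.73 and 0.71.

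The makeup within this pair was not resolved, since *Cdkn2c* made up 28.2 ± 6.54% of the counts of both with vehicle and 24.4 ± 4.54% with AG636 (SD, n = 3 each; exact permutation p = 0.6). Set against their kinases, the INK4 counts were 5.95, 6.56 and 6.10 per 100 *Cdk4* plus *Cdk6* counts with vehicle and 12.9, 17.7 and 13.2 with AG636. This ratio was formed after the values were seen and is given without a test. The summed level of the inhibitors was 100.1 ± 11.4 CPM with vehicle and 197 ± 25.2 CPM with AG636 (SD, n = 3 each) and did not overlap, whereas the sums of the kinases, at 1610 ± 102 and 1368 ± 204 CPM (SD, n = 3 each), overlapped between groups.

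*Cdkn1b* (chromosome 6 from 134920401 to 134925513, plus strand), the gene of the KIP inhibitor p27, had 52.8, 65.0 and 59.6 CPM with vehicle and 68.8, 77.5 and 91.4 CPM with AG636. The AG636 values were all higher, at 79.2 ± 11.4 beside 59.1 ± 6.13 CPM (SD, n = 3 each), but the log2 fold change of 0.42 (95% interval 0.09 to 0.75) had an adjusted p of 0.0685 in edgeR's test. It passed with library size alone (adjusted p = 0.0409, edgeR).

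The other CDK inhibitors in the table were then compared. *Cdkn1a*, the gene of the p53 target p21, had 24.1, 54.5 and 63.3 CPM with vehicle and 87.3, 86.8 and 106 CPM with AG636. These groups did not overlap, and the log2 fold change was 0.98 (SE 0.28, edgeR adjusted p = 0.0353), a call that was lost without the vehicle sample 2 (adjusted p = 0.0752, edgeR), the AG636 sample 1 (0.0765) or the AG636 sample 3 (0.112). *Cdkn1c*, the gene of p57, was scarcely detected, with 2, 7 and 7 counts with vehicle and 24, 20 and 20 with AG636, and had a log2 fold change of 2.25 (SE 0.46, edgeR adjusted p = 0.0115). *Cdkn2a*, which encodes p16 and ARF, had a log2 fold change of 1.31 (SE 0.50) that did not pass (adjusted p = 0.0843, edgeR), and its values of 3.57 to 9.42 CPM with vehicle and 5.31 to 23.3 CPM with AG636 overlapped. *Cdkn2b* had 6 counts over all samples and could not be tested. The 3 inhibitors tested outside the family had a median log2 fold change of 1.31, beside 0.03 over all genes. Including *Cdkn2c*, *Cdkn2d* and *Cdkn1b*, the log2 fold changes of the 6 inhibitors tested were all above 0, as were those of 5801 of all 11092 genes tested.

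**Figure D3:**
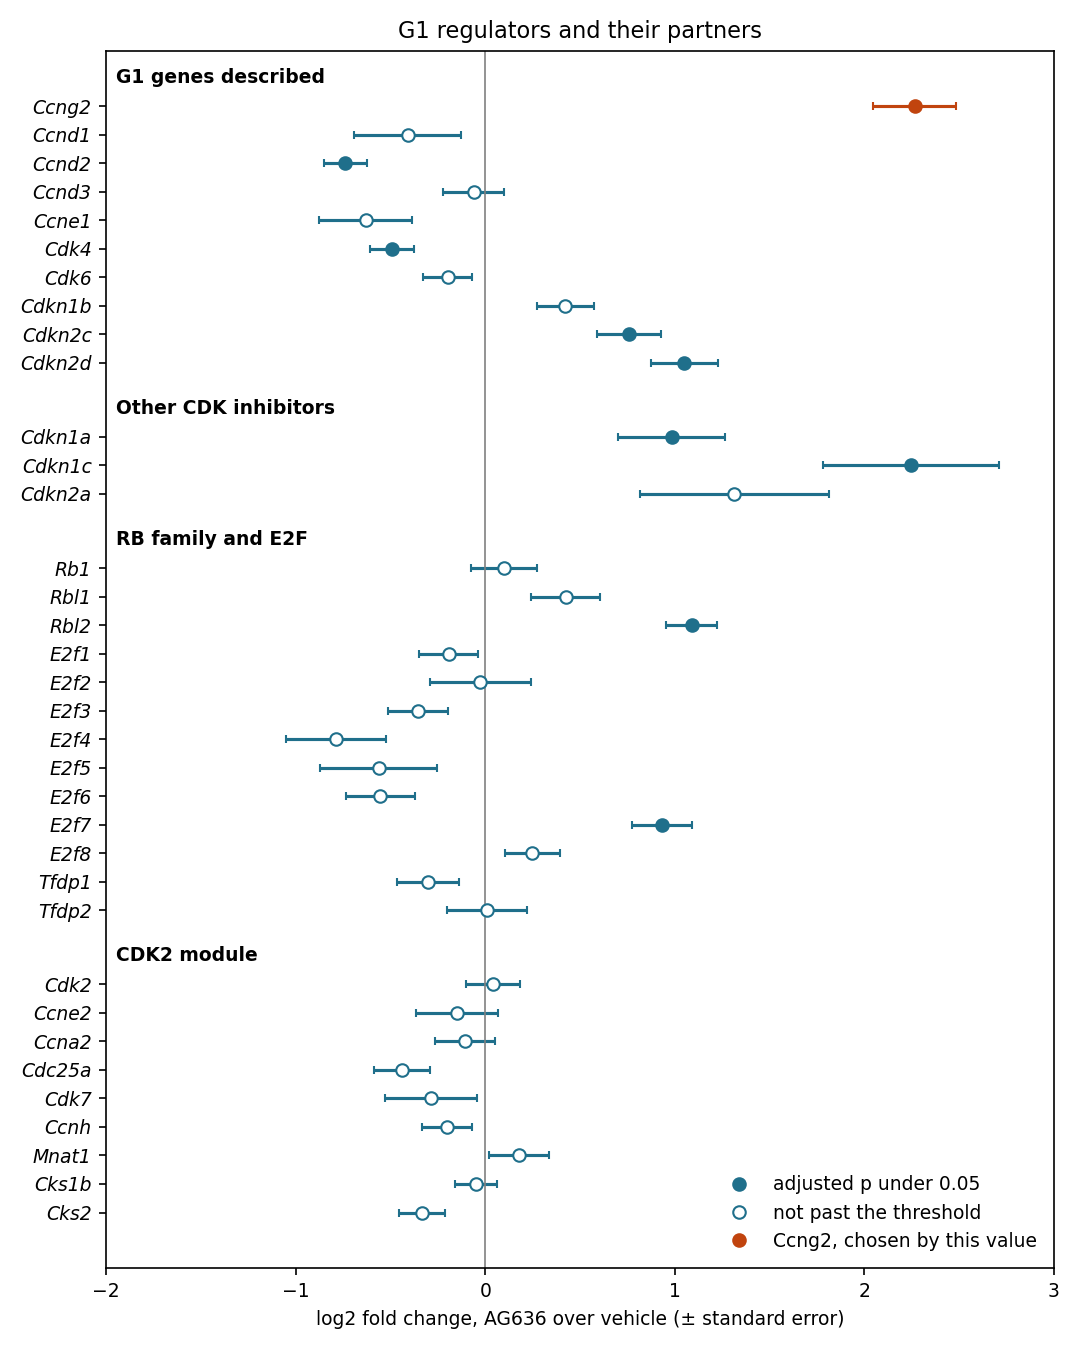
Log2 fold change (AG636 over vehicle) with its SE for the 10 G1 regulators, the other CDK inhibitors, the RB and E2F families and the CDK2 module. Filled blue points passed an adjusted p of 0.05. *Ccng2* is in orange because its value chose the family, and its point is filled without a test. All inhibitors lie above 0, from 0.42 (*Cdkn1b*) to 2.25 (*Cdkn1c*), and *Rbl2* (1.09) and *E2f7* (0.93) are the filled points of the RB and E2F families.

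Downstream of the kinases, 2 of 13 RB and E2F family genes rose and none fell, with a median log2 fold change of -0.03, beside 21.3% called and a median of 0.03 over all genes. *Rbl2*, the gene of the pocket protein p130 that is typical of resting cells, had 42.4, 43.3 and 42.6 CPM with vehicle and 83.9, 102.9 and 86.5 CPM with AG636. The groups were far apart, and the log2 fold change was 1.09 (SE 0.13, edgeR adjusted p = 0.00242). *E2f7*, the gene of an atypical E2F that represses transcription, had 28.5, 33.0 and 40.3 CPM with vehicle and 62.9, 62.5 and 68.7 CPM with AG636 (log2 fold change 0.93, SE 0.16, edgeR adjusted p = 0.0057). *Rb1* (log2 fold change 0.10), *Rbl1* (0.43) and the activator *E2f1* (-0.19) did not pass, with adjusted p values of 0.711, 0.119 and 0.398 from edgeR. Of the 13 genes, 6 had a log2 fold change above 0 and 7 below 0. *E2f4* (-0.79) and *E2f6* (-0.55), named after their values were seen, were close to the threshold, with adjusted p values of 0.0562 and 0.0561 from edgeR. Without the vehicle sample 2, 4 genes of this list were called. In the CDK2 module, the kinase that cyclin E serves and its regulators, 0 of 9 genes passed in edgeR's test (2 at an unadjusted p under 0.05; 1 without the filter on low counts). *Cdk2* had a log2 fold change of 0.04 (95% interval -0.28 to 0.36) and *Ccne2* of -0.15 (95% interval -0.64 to 0.34). Among 10 ubiquitin ligase genes that act on G1 regulators, 0 passed in edgeR's test (2 at an unadjusted p under 0.05; 1 called without the vehicle sample 3), and the median was -0.04.

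Of 30 genes of S phase that E2F factors are known to drive, 8 fell and none rose, where 11.0% of all genes tested fell. A log2 fold change below 0 was found for 27 of the 30, beside 5291 of all 11092 genes tested, and the median was -0.26. *Orc1*, *Cdc6* and *Cdt1*, which load the replicative helicase onto origins, fell by 0.83, 0.72 and 0.63 on the log2 scale (adjusted p = 0.0272, 0.0182 and 0.0243, edgeR). *Dut*, whose product removes dUTP from the nucleotide pool, fell by 0.61 (adjusted p = 0.0146, edgeR). The other 4, named after their values were seen, were *Mybl2*, *Mcm3*, *Mcm5* and *Mcm7*. The count of calls in this list depended on single samples: it was 0 without the AG636 sample 3, 2 without the vehicle sample 1, 3 without the vehicle sample 2 and 5 without the AG636 sample 2. The medians in these fits were -0.19, -0.27, -0.31 and -0.22, in the same order. Genes called lower over all genes numbered 452, 701, 692 and 1171 in these fits, in the same order, beside 1222 with all samples. Of 21 genes of G2 and mitosis, 3 rose and none fell, where 10.3% of all genes tested rose, and the median was 0.13. These were *Cdc25b* (0.72), *Ccnb2* (0.55) and *Cenpf* (0.41), with adjusted p values of 0.0234, 0.0159 and 0.0301 from edgeR. In this list 0 genes were called without the vehicle sample 2 or without the AG636 sample 3, and 1 without the vehicle sample 1. Genes called higher over all genes numbered 500, 399 and 524 in these fits, in the same order, beside 1146 with all samples. *Mki67*, the proliferation marker, had a log2 fold change of -0.15 and was named after its value was seen.

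Since *Ccng2* and *Cdkn1b* are known targets of FOXO factors, other FOXO genes and targets were counted beside them. Of 20 tested, 11 rose and 1 fell, with a median log2 fold change of 0.79, beside 10.3% and 11.0% of all genes tested. *Trp53inp1*, which is also a p53 target, had 2.67 to 4.58 CPM with vehicle and 16.4 to 25.1 CPM with AG636 (log2 fold change 2.41, adjusted p = 0.00203, edgeR). *Pik3ip1*, an inhibitor of PI3-kinase, had 15.9 to 22.2 CPM and 47.4 to 57.2 CPM (log2 fold change 1.41, adjusted p = 0.00247, edgeR). *Fbxo32*, a ubiquitin ligase gene, and *Sesn3*, a sestrin gene, had log2 fold changes of 1.58 and 1.33 (adjusted p = 0.0254 and 0.00899, edgeR), and *Fbxo32* no longer passed without the vehicle sample 1 or 3 or the AG636 sample 3. *Sod2*, the mitochondrial superoxide dismutase gene, was the one that fell (-0.62), and is named after its value was seen. The factors themselves, *Foxo1*, *Foxo3* and *Foxo4*, also named after their values were seen, had log2 fold changes of 0.53, 0.42 and 0.25 and did not pass.

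**Figure D4:**
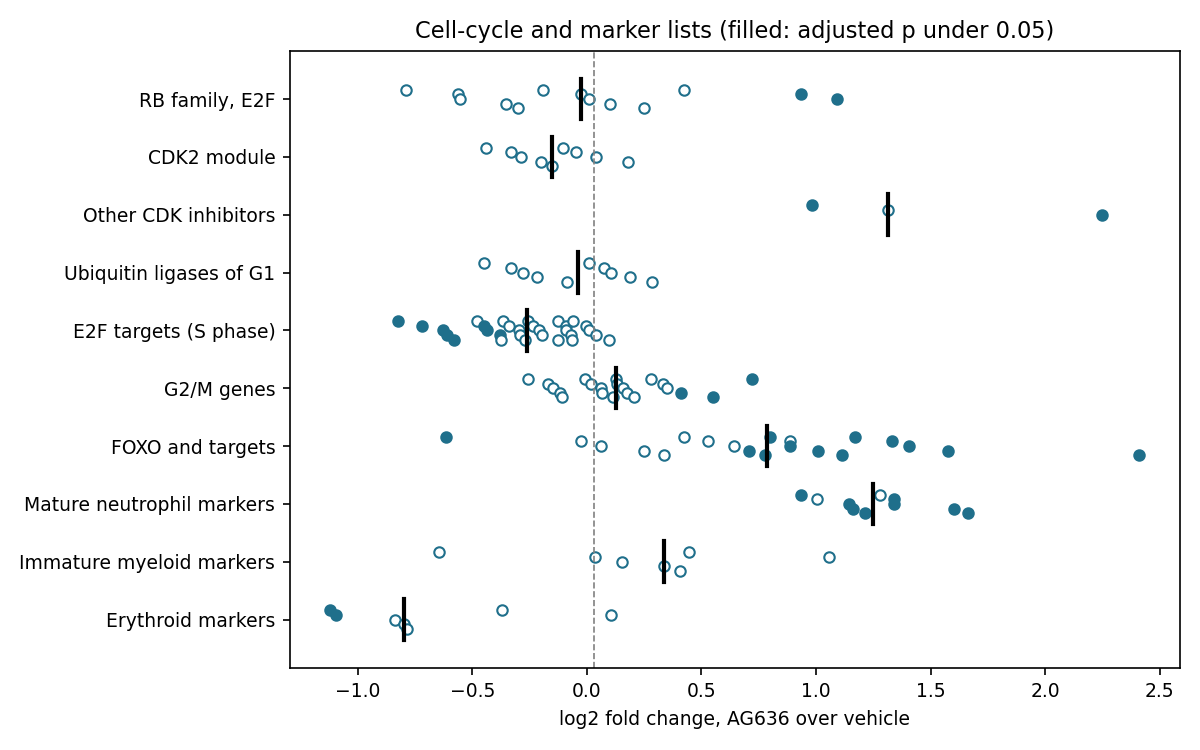
Log2 fold change (AG636 over vehicle) of each tested gene in 7 cell-cycle and pathway lists and 3 marker lists, filled where the adjusted p was under 0.05, with the list median as a black bar and the median of all genes (0.03) as a dashed line. S phase genes have a median of -0.26, FOXO genes and targets of 0.79 and mature neutrophil markers of 1.25.

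The labelled identity of the cells was checked against marker genes. *Kit*, the gene of the receptor used in the sort, had 38.6 ± 6.03 CPM with vehicle and 42.8 ± 4.80 CPM with AG636 (SD, n = 3 each). Of 7 immature myeloid markers tested, 0 were called in edgeR's test (0 at an unadjusted p under 0.05). Their log2 fold changes ran from -0.65 to 1.05 with a median of 0.34, so the lack of calls does not show that they were unchanged. Of 10 markers of mature neutrophils, 8 rose, led by *Ngp* (1.67), *Ly6g* (1.60), *Camp* (1.34) and *Retnlg* (1.34), and their median log2 fold change was 1.25, where 10.3% of all genes tested rose. The other 4, named after their values were seen, were *Ltf*, *Lcn2*, *S100a9* and *Itgam*. *Itgam*, the gene of the CD11b antigen against which the cells were sorted, had 12.1, 18.3 and 27.0 CPM with vehicle and 60.1, 31.3 and 41.2 CPM with AG636. Of 6 monocyte and macrophage markers tested 2 rose, *Cd68* (1.57) and *Ly6c2* (1.14), and the summed level of the 8 listed was 62.2 to 99.3 CPM with vehicle and 145 to 232 CPM with AG636. Among erythroid markers *Klf1* fell (-1.10), while the summed levels of the list, 1152 to 2908 and 1330 to 2149 CPM, overlapped. The log2 fold change was below 0 for 6 of the 7 erythroid markers and above 0 for 1, with a median of -0.80. Over all 11092 genes tested it was below 0 for 5291 and above 0 for 5801. Of 4 megakaryocyte markers tested 2 rose, *Gp9* (1.02) and *Itga2b* (0.73), with overlapping sums of 774 to 1207 and 1045 to 1699 CPM. *Ppbp* of the same list, named after its value was seen, had a log2 fold change of -0.74 (edgeR adjusted p = 0.0534) and groups that did not overlap. B cell markers summed to 6.78 to 14.6 CPM with vehicle and 14.6 to 19.8 CPM with AG636, with *Ms4a1* and *Pax5* at 2 and 3 counts over all samples, and 0 of the 6 T and NK cell markers passed the filter. The calls of *Ngp*, *Camp* and *Cd68* held in all 13 alternative settings, and each other marker named as called by its log2 fold change lost its call without at least 1 sample: without the vehicle sample 1 for *Retnlg*, *Ly6g*, *Ly6c2* and *Itga2b*, and without the AG636 sample 3 for *Klf1* and *Gp9*. With 1 sample left out, the call held in 5 of 6 fits for *Retnlg* and *Gp9* and in 4 of 6 for *Klf1*. It held in 3 of 6 for *Ly6g*, 2 of 6 for *Itga2b* and 1 of 6 for *Ly6c2*. No gene of the mature neutrophil list was without counts, and the part of any of these cells in the values of the G1 genes was not tested.

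Some of the G1 genes share exons with a gene on the opposite strand, and the use of strand in counting is not given in the sources used here. The exons of *Ccnd1* and *Cdk4* overlap those of *LTO1* (1100 bases) and *Tspan31* (659 bases) in their last exons, where the reads of this assay fall. Over all samples *LTO1* had 481 counts beside 941 of *Ccnd1*, and *Tspan31* had 990 beside 6202 of *Cdk4*, so the level of *Ccnd1* in particular is uncertain. *Ccnd3* overlaps *Bysl* by 1785 bases outside its last exon, with 2145 counts beside 14954. *Ccnd2* overlaps *Gm43126* and *9330179D12Rik*, which had 0 and 9 counts, and *Cdk6* overlaps *Gm17590*, which had 252 beside 43466. *Ccne1*, *Cdkn1b*, *Cdkn2c* and *Cdkn2d* overlap none.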

How the data were processed

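RNA of 3 vehicle and 3 AG636 samples was measured with a 3′ end capture assay (QuantSeq), grouped by the submitters' labels. The authors deposited counts, one whole number per gene and sample, without normalization. The study's methods describe trimming with cutadapt, mapping to mm10 with HISAT2 and counting with the Subread package. The submitters' processing notes name cutadapt 1.9.1, HISAT2 2.0.4, featureCounts and Subread 1.5.0-p3, whereas the methods give other versions of cutadapt and Subread, and the notes do not say which were used for these files. The annotation release, the use of strand and the treatment of reads that map to several places are not given in the sources used here. No molecular identifiers are described, so floors of 3 counts cover counting error only. The columns of gene length and exon coordinates were not tested.

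Symbols for 54723 of 54838 identifiers came from GENCODE M21, in which 98.7% had the same start and end. Genes were kept by filterByExpr (minimum count 10, minimum total 15), scaled by TMM and tested with edgeR 4.0.16 (quasi-likelihood, R 4.3.3, Benjamini-Hochberg adjusted p under 0.05 over 11092 genes, no replicate block). The standard error is the log2 fold change divided by the square root of F. CPM use the scaled library sizes. Shares within a class used exact permutation tests in SciPy 1.17.1. Per degree of freedom, a chi-square of replicate counts was 6.68 to 15.7, so each sample was counted once. P-values measure the spread between these mice, all of which carry one leukemia. The median standard error was 0.195. The script was tested on simulated data.

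The members and lists were chosen with earlier results of these data known, and the G1 genes were chosen by this contrast through *Ccng2*. Genes named were all 10 G1 genes, the genes of each list past the threshold up to the 4 with the largest change, *Cdkn1a*, *Cdk2*, *Ccne2*, *Rb1*, *Rbl1*, *Rbl2* and *E2f1* in any case, the 3 genes most like *Ccng2*, and genes that overlap a member. Alternatives were limma-voom (limma 3.58.1, the study's tool), DESeq2 1.42.0, its size factors, library size alone, other filters, a replicate block and leaving out each sample in turn. The number of per-sample columns not used was 0. The values of 1 listed marker gene are not reported here.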

Additional observations from a re-analysis of the deposited data

How the results depend on the processing

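Each value was recomputed under 13 alternatives. *Ccnd2* and *Cdkn2d* kept direction and call in all of them. *Ccng2* also kept its direction, but it was chosen by its increase in these same samples, so this is a description and not a test. Of the 9 other G1 genes 4 were called, 4 to 5 under other tools, scalings and filters and 2 to 4 with 1 sample left out (2 without vehicle sample 2 and 2 without AG636 sample 3), and over all genes 2368, with 1960 to 3157 and 851 to 2311 (1225 without vehicle sample 1, 1192 without vehicle sample 2, 1235 without AG636 sample 1, 851 without AG636 sample 3). *Ccnd3* turned positive with library size alone (0.026), without vehicle sample 3 (0.012) and without AG636 sample 2 (0.048). *Cdk2* turned negative without vehicle sample 1 (-0.021) and without AG636 sample 1 (-0.074), *Rb1* without vehicle sample 2 (-0.060), and *Ccne2* positive without AG636 sample 2 (0.016). With 1 sample left out these ranged from -0.22 to 0.048 (*Ccnd3*), -0.074 to 0.13 (*Cdk2*), -0.060 to 0.23 (*Rb1*) and -0.48 to 0.016 (*Ccne2*). The *Ccnd1* share of D-type cyclins differed by 0.00587 points between groups, and by -0.386, -0.300 and -0.0267 points without vehicle sample 1, vehicle sample 2 and AG636 sample 2. The causes were not tested. Calls among RB and E2F genes were 2, and 4 with DESeq2 or no filter. Those in the CDK2 module were 0, and 1 with no filter. Those among other inhibitors were 2, and 1 with at least 10 counts in every sample, a filter that removed *Cdkn1c*. Those among other cyclins were 2, and 1 with DESeq2. Those among other CDKs were 2, and 1 with library size alone.

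With 1 sample left out, calls ranged from 2 to 4 (RB and E2F), 0 to 0 (CDK2 module), 1 to 2 (other inhibitors), 0 to 1 (ubiquitin ligases), 0 to 7 (S phase), 0 to 3 (G2 and mitosis), 8 to 12 (FOXO), 1 to 1 (other cyclins) and 1 to 3 (other CDKs). Differences in share ranged from -14.6 to -8.94 points (*Ccnd2*), 9.33 to 14.6 (*Ccnd3*), 1.20 to 2.83 (*Cdk6*), -6.36 to -0.139 (*Cdkn2c*) and -0.386 to 0.704 (*Ccnd1*).

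The replicate numbers mark different mice, and the samples were not paired by them. Deviations of same-numbered samples correlated at -0.0573, -0.178 and 0.224, and those of unlike-numbered samples at -0.38 to 0.364. With 3 samples per group these values cannot show whether same-numbered samples share a batch. A replicate block gave 1960 calls, with 1 each in the CDK2 module, other cyclins and other CDKs, and *Ccne1* passed (adjusted p = 0.0361, edgeR).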

Other observations

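Cyclins and CDKs outside the G1 family were also compared. Of 12 other cyclin genes tested, 2 rose and none fell, with a median log2 fold change of -0.03, where 10.3% of all genes tested rose and 11.0% fell. *Ccng1*, the paralog of *Ccng2* and a known p53 target, had 84.9, 80.7 and 78.2 CPM with vehicle and 152.9, 135 and 153.8 CPM with AG636, so the groups did not overlap. The log2 fold change was 0.86 (standard error, SE, 0.12, edgeR adjusted p = 0.0032). *Ccnj* had a log2 fold change of 0.94 (adjusted p = 0.0394, edgeR) at 3.57 ± 0.476 and 6.88 ± 0.314 CPM (SD, n = 3 each), and its call was lost whichever sample was left out, with adjusted p values from 0.065 to 0.127.

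Of 13 other CDK genes tested, 1 rose and 1 fell, with a median log2 fold change of 0.01, where 21.3% of all genes tested were called. *Cdk19*, a kinase of the Mediator complex, had 95.2, 104 and 101 CPM with vehicle and 187, 229 and 221 CPM with AG636, and its log2 fold change was 1.09 (SE 0.12, edgeR adjusted p = 0.00202). Its paralog *Cdk8*, named after its value was seen, had a log2 fold change of -0.19 (adjusted p = 0.513, edgeR). *Cdk11b*, a kinase linked to transcription and splicing, was lower, with a log2 fold change of -0.50 (adjusted p = 0.0321, edgeR), a call that was lost without the vehicle sample 1 or 2 or the AG636 sample 2 or 3.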
